A study of Mus musculus with 6 samples.

Results

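Chemokines are small secreted or membrane-held proteins that guide migrating cells, and their receptors sit on the surface of the cells that follow them. The genes described here are those whose symbol names a chemokine (Ccl, Cxcl, Cx3cl or Xcl with a number) or a chemokine receptor (Ccr, Cxcr, Cx3cr, Xcr or Ackr with a number), provided their reads added up to 30 or more over the 6 libraries. Of the 54146 genes counted, 60 with such a symbol are considered here and 44 of them reached that total, 30 ligands and 14 receptors. Among the 16 others, 6 had no read in any library and 10 had totals between 1 and 29. Just inside the threshold were Ccl3 and Cxcr5 with 31 reads each, and just outside were Ccr6 with 27 and Xcl1 with 26.

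The study sequenced poly A+ RNA of whole kidneys of B6C3F1/J mice on postnatal day 84. The 3 libraries labelled Tfam f/f come from animals with a floxed Tfam gene and no Cre, which the study used as controls, and the 3 labelled KspCre Tfam f/f come from animals that carry the same floxed gene together with the Ksp-Cre transgene. Ksp-Cre is driven by the promoter of kidney-specific cadherin (Cdh16), which is active in tubule epithelium, so leukocytes, vessels and interstitial cells are not its target and a whole kidney mixes all of them. Tfam itself coats mitochondrial DNA and drives its transcription. The targeted gene went against the labels: normalized Tfam values in CPM (a gene's share of its library, scaled to a fixed total) were 30.3, 33.6 and 23.2 under the label Tfam f/f and 63.1, 63.5 and 61.4 under the label KspCre Tfam f/f, a level 2.15-fold higher where Cre should be present (adjusted p = 0.00107). In the names of the deposited files, WT stands on the KspCre Tfam f/f side and MV on the Tfam f/f side. Whether the labels of the groups were exchanged cannot be told from these files. If they were, each direction below would belong to the opposite genotype, so directions are given by label alone, and values are listed from replicate 1 to replicate 3, the label Tfam f/f first.

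Total gene counts ran from 19024208 to 34821537 under the label Tfam f/f and from 30348281 to 48899266 under the label KspCre Tfam f/f, and the 44 genes held between 10848 and 19890 counts per library. CPM values were scaled with TMM factors, which correct for differences in library composition and were 1.09 to 1.25 in the first group and 0.852 to 0.871 in the second. A gene was called when the adjusted p of edgeR's quasi-likelihood test (Benjamini-Hochberg over all 17308 genes tested) was below 0.05. SE is an approximate standard error, the size of the log2 fold change divided by the square root of the F statistic of that test. In all, 8000 genes (46.2%) were called, 4310 (24.9%) higher under the label Tfam f/f and 3690 (21.3%) higher under the label KspCre Tfam f/f. The first direction held 53.9% of these calls, but 83.5% when library totals alone set the scale, which moved the median log2 difference of all genes (KspCre Tfam f/f minus Tfam f/f) from -0.028 to -0.457.

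Chemokines fall into families by the spacing of their first cysteines (CC, CXC, CX3C and XC), and nearly all signal through receptors coupled to inhibitory G proteins. Inflammatory members are switched on in injured tissue and call in neutrophils, monocytes and T cells, while homeostatic members are made without injury and place lymphocytes and other cells in their niches. Atypical receptors (the Ackr group) bind chemokines without G protein signalling and remove or redistribute them. In the kidney, tubule cells, endothelium, fibroblasts and resident or incoming macrophages can all make chemokines, and the receptors lie mostly on leukocytes.

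Of the 44 genes, 35 passed the filter on low counts and were tested. Of these, 13 (37.1%) were higher under the label Tfam f/f, against the 24.9% of all tested genes, and 3 (8.57%) were higher under the label KspCre Tfam f/f, against 21.3%. The other 19 were not called. Ligands gave 10 calls (41.7%) in the first direction and 3 (12.5%) in the second among 24 tested. Receptors gave 3 (27.3%, near the 24.9% of all tested genes) and 0 among 11. At an unadjusted p below 0.05, 1 receptor (Ackr3) was higher under the label KspCre Tfam f/f, and limma voom and DESeq2 called 0 there. The median log2 difference (KspCre Tfam f/f minus Tfam f/f) was -0.70 over the 35 genes and -0.028 over all tested genes. Leaving out KspCre Tfam f/f replicate 2 or replicate 3 gave 6 calls in the first direction in each case, in place of 13. The filter was applied anew in each such fit, so genes not tested in the main fit can be among the 6. Without replicate 3 of that label the 3 calls became 1. The plot of differences shows the 35 genes with their SE.

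**Figure D1:**
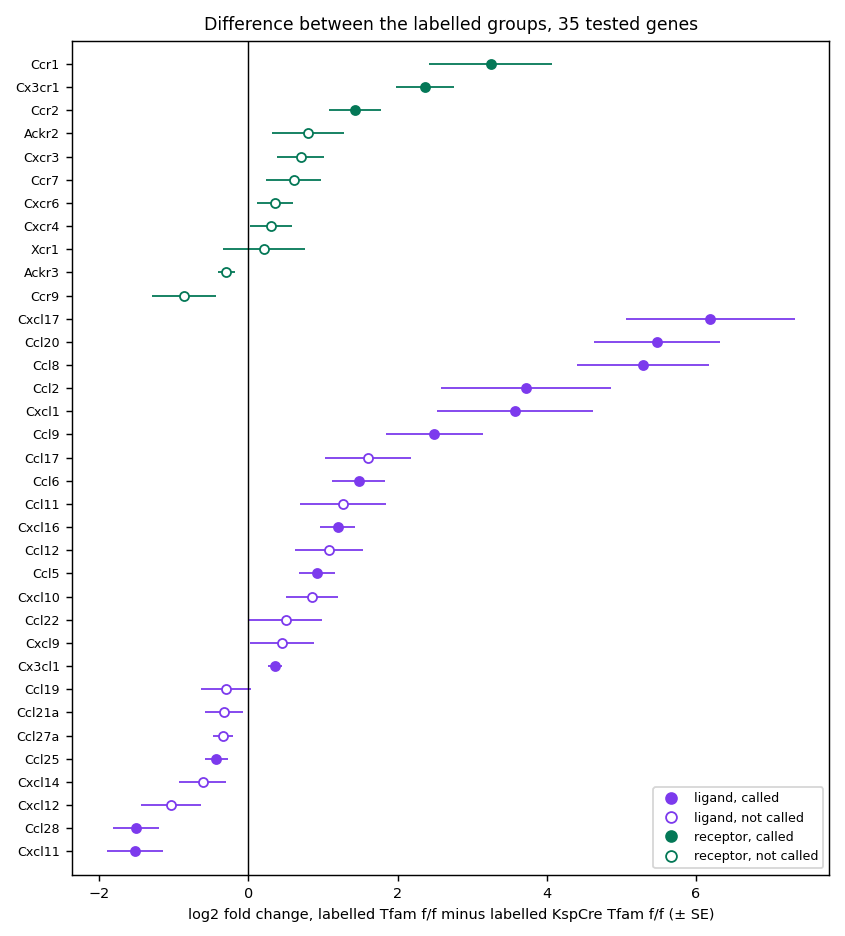
Log2 fold change (x axis, libraries labelled Tfam f/f minus libraries labelled KspCre Tfam f/f) of the 35 tested chemokine receptors (green, top) and ligands (purple, below). Bars are 1 SE (approximate), and filled points are genes called by edgeR's quasi-likelihood test. The 13 filled points on the right run from Cx3cl1 to Cxcl17, and the 3 on the left are Ccl25, Ccl28 and Cxcl11.

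Of 8 CXC ligands tested, 3 (37.5%) were higher under the label Tfam f/f, 1 (12.5%) was higher under the other label and 4 were not called, against 24.9% and 21.3% of all tested genes. In mm10 many of them lie on chromosome 5, with Cxcl5, Cxcl1 and Cxcl2 between 90759360 and 90905938 and Cxcl9, Cxcl10 and Cxcl11 between 92321347 and 92365485. Among those that attract neutrophils through Cxcr2, Cxcl1 (ENSMUSG00000029380.11) had enough reads to be tested. It had 12.3, 2.03 and 49.5 CPM under the label Tfam f/f and 1.97, 2.37 and 0.839 CPM under the label KspCre Tfam f/f. Replicates 1 and 3 of the first label were above all others, while replicate 2 lay inside the range of the second, so the groups overlap. The fitted difference was 11.9-fold higher under the label Tfam f/f (SE 1.04, adjusted p = 0.0265), and 3.99-fold without replicate 3 of that label (adjusted p = 0.0495). The call was lost without any single KspCre Tfam f/f library (adjusted p 0.0728 to 0.0891), without the low-count filter (0.152) and with limma voom (0.206).

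Cxcl2, its close relative, had 2.35, 0.105 and 16.7 CPM against 0.0705, 0.0242 and 0.0763, so replicate 3 of the label Tfam f/f carried most of its reads. Cxcl5, another ligand of Cxcr2, had 0.294, 0.0263 and 2.81 CPM against 0 in all 3 libraries labelled KspCre Tfam f/f. Its 76 counts against 0 put it at least 31.3-fold higher, taking 3 counts over the group of 0 as the limit. Of those counts, 67 were in Tfam f/f replicate 3, and without it the limit was 5.07-fold, against 19.2-fold to 53.9-fold without any other library. The filter on low counts removed both genes, and a fit without that filter did not call them (adjusted p = 0.126 for Cxcl2 and 0.325 for Cxcl5). Without Tfam f/f replicate 2 that fit called Cxcl2 (0.0272), and without replicate 3 it called Cxcl5 (0.0143), while the other libraries left out gave no call. Cxcr2, the receptor of the group and a marker of neutrophils, was itself below the filter, with 0.367, 0.184 and 0.797 CPM against 0.117, 0.169 and 0.0382. In that fit it was 3.63-fold higher under the label Tfam f/f (adjusted p = 0.047), and it lost the call without each of 5 of the 6 libraries in turn, all but Tfam f/f replicate 2 (adjusted p 0.0508 to 0.255). Its fold was 2.25 without Tfam f/f replicate 3, and thinning the libraries to equal depth gave 5.51-fold with no call (0.0821). Neutrophil markers moved with these genes: both tested markers of 7 in the files, S100a9 and Csf3r, were called higher under the label Tfam f/f. Of all tested genes, 24.9% were called in that direction. The list summed to 2.19 to 12.2 CPM under that label against 0.954 to 1.93. Mpo was at 0 in all libraries, and Ly6g had reads in Tfam f/f replicate 3 alone. The part of neutrophils in these differences was not tested.

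The promoters of Cxcl1 and Cxcl2 are shown because they carry matches to the same motif, and Ccl20 and Cxcl10 below carry it at other places. Cxcl1, Cxcl2, Ccl20 and Cxcl10 all rank the libraries labelled Tfam f/f alike, with replicate 3 highest and replicate 2 lowest. That order is not particular to genes with the motif: Ccl8, with no match, has it too. RefSeq start sites were at hand for 33 of the 44 genes (GRCm38.p6, the mm10 assembly). The other genes of the family, Ccl2 and Ccl5 among them, were not searched. Both strands of the 250 bases before each start were searched for the NF-kB consensus, a motif bound by the NF-kB family of transcription factors. Each line below holds the 220 bases from position -250 to position -31, 5′ to 3′ on the strand of the gene, with the NF-kB matches in capitals. They lie at chr5:90890995-90891214 (plus strand) for Cxcl1, chr5:90903649-90903868 (plus) for Cxcl2, chr5:92348920-92349139 (minus) for Cxcl10 and chr1:83116516-83116735 (plus) for Ccl20.
Cxcl1: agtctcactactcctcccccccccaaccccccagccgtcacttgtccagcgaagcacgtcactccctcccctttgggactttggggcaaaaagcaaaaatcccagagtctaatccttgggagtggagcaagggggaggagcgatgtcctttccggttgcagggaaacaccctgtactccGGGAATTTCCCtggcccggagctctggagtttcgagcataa
Cxcl2: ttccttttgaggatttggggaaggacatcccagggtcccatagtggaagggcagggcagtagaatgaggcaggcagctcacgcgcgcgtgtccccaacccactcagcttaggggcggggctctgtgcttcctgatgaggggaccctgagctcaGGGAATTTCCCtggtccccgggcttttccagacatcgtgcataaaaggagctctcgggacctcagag
Cxcl10: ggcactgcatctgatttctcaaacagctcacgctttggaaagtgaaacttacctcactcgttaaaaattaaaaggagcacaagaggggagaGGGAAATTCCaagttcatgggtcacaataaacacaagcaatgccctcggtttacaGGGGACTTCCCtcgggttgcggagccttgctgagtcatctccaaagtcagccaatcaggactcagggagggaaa
Ccl20: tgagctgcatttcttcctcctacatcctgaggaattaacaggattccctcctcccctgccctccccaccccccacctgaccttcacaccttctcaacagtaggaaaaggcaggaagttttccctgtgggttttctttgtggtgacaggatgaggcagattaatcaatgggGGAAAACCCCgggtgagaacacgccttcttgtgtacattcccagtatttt
Cxcl1 and Cxcl2 hold the same 11 letters in capitals, which are 2 overlapping matches offset by 1 base, starting at -71 and -70 in Cxcl1 and at -97 and -96 in Cxcl2. Cxcl10 holds 3 matches, at -159, -104 and -103, together with an AP-1 match (TGANTCA) at -74 and an interferon-response match (ISRE, GAAANNGAAA) at -213. Ccl20 holds a single match at -80.

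Across the family, 6 of the 33 promoters (18.2%) held an NF-kB match, against 6.73% of the 27025 genes in the RefSeq table. They belong to Cxcl1, Cxcl2, Cxcl10, Ccl20, Ccl9 and Ackr2. The AP-1 motif was in 3 of 33 (9.09%), against 7.82% of all, and the ISRE in 3 of 33 (9.09%), against 3.46%. A C/EBP motif (TTGCNNAA) was in 4 of 33 (12.1%), against 10.8%. The letters TATAAA, on either strand and at any place in the window, were in 11 of 33 (33.3%), against 14.3%. Their places differed, for example -32 in Ccl8, -31 in Ccl12, -195 in Cxcl9, -185 in Ackr4 and -6 in Cx3cl1. That share therefore counts letters and not TATA boxes, which are defined by their distance from the start as well. Among the 9 called higher under the label Tfam f/f with a start site, 3 held an NF-kB match (Cxcl1, Ccl20 and Ccl9) and 0 an ISRE. A match describes letters in a window and is no sign of binding, and no test was made of these shares.

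**Figure D2:**
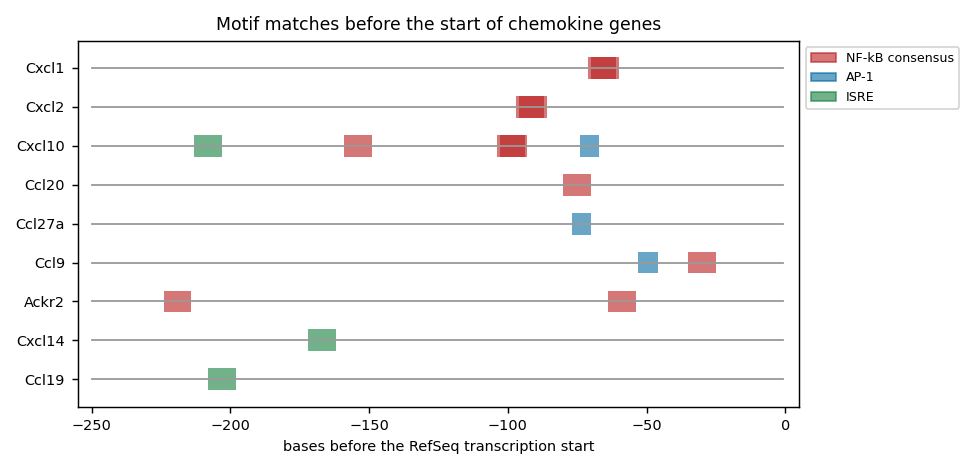
Position of matches to the NF-kB consensus (red), AP-1 (blue) and ISRE (green) motifs in the 250 bases before the RefSeq start (x axis, bases). Shown is each of the 9 genes with at least 1 such match among the 33 genes of the family searched. Darker red marks 2 overlapping matches, as in Cxcl1, Cxcl2 and Cxcl10.

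Of 15 CC ligands tested, 6 (40%) were higher under the label Tfam f/f, 2 (13.3%) were higher under the other label and 7 were not called, beside 24.9% and 21.3% of all tested genes. Those of monocytes and macrophages form 2 groups on chromosome 11 (mm10), from Ccl2 (82035571) to Ccl8 (82116799) and from Ccl5 (83525778) to Ccl4 (83664683). Ccl2 (ENSMUSG00000035385.5), which draws monocytes through Ccr2, had 0.771, 0.501 and 8.02 CPM under the label Tfam f/f and 0.258, 0.193 and 0.229 CPM under the label KspCre Tfam f/f. All 3 of the first were above all 3 of the second, but replicate 3, with 191 counts, stood far above the other two, with 21 and 19. The fitted fold was 13.2 (SE 1.14, adjusted p = 0.0321), and 2.74 without that replicate. The call was lost without any single KspCre Tfam f/f library (adjusted p 0.0901 to 0.102), without the low-count filter (0.152) and with voom (0.138). Ccl8, another CC ligand of the same chromosome 11 cluster, had 4.85, 1.34 and 11.5 CPM against 0.188, 0.0966 and 0.153. It was 39.1-fold higher (SE 0.88, adjusted p = 0.00352), and 20.5-fold without replicate 3, and it was called under every alternative run.

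Ccl9 and Ccl6, CC ligands of Ccr1 made mainly by myeloid cells, were also highest in Tfam f/f replicate 3. Ccl9 had 2.79, 2.05 and 9.95 CPM against 1.22, 0.556 and 0.801, with no overlap between the labels. It was 5.63-fold higher (SE 0.65, adjusted p = 0.0174), 2.79-fold without Tfam f/f replicate 3, and not called without KspCre Tfam f/f replicate 2 (adjusted p 0.0691), without replicate 3 (0.0629) or without the filter (0.0686). Ccl6 had 4.52, 5.27 and 11.4 CPM against 2.68, 2.63 and 2.21, without overlap. It was 2.79-fold higher (SE 0.36, adjusted p = 0.0127) and just missed the threshold without KspCre Tfam f/f replicate 3 (0.0511). Ccl5, made by T cells and many activated cells, varied less, with 3.3, 2.4 and 3.9 CPM against 1.62, 1.69 and 1.76. The groups did not overlap and it was 1.89-fold higher (SE 0.24, adjusted p = 0.0168), though the call was lost without any single KspCre Tfam f/f library (0.057 to 0.0651).

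The remaining ligands of the chromosome 11 clusters were scarce. Ccl7, a neighbour of Ccl2, had 38 counts against 4, a ratio per depth of 11.8 with a counting interval (95%, exact) of 4.23 to 45.3. It was below the filter, and a fit without the filter called it (11.9-fold, adjusted p = 0.0226), except without Tfam f/f replicate 1 (0.0697), KspCre Tfam f/f replicate 2 (0.105) or replicate 3 (0.0743). That fold was 5.81 without Tfam f/f replicate 3 and 25.4 without KspCre Tfam f/f replicate 1. Ccl12 and Ccl11, the latter an attractant of eosinophils, had means of 0.621 ± 0.345 and 0.485 ± 0.137 CPM (SD, n = 3) under the label Tfam f/f against 0.284 ± 0.0368 and 0.212 ± 0.142, and were not called (adjusted p = 0.0887 and 0.106). Ccl12 was called without Tfam f/f replicate 2 (0.029), and both were when library totals alone set the scale (0.0284 and 0.0331). Ccl3 and Ccl4 had means of 0.249 ± 0.112 and 0.234 ± 0.136 CPM against 0.0936 ± 0.021 and 0.175 ± 0.0141, and were not tested. At these depths 1 read is 0.0235 to 0.042 CPM, so the values of Ccl3 and Ccl4 rest on 3 to 9 reads in each library.

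Macrophage markers moved with the monocyte group. Of 18 listed and tested markers, 15 (83.3%) were higher under the label Tfam f/f, against 24.9% of all tested genes. Under the other label 1 (Mertk, 5.56%) was higher, against 21.3%, and 2 (Csf1r and Ly6c2) were not called. Cd163, a scavenger receptor of macrophages, had 4.19, 2.74 and 6.71 CPM against 0.564, 0.556 and 0.534 (8.13-fold, adjusted p = 0.00104), and Cd68 had 11.1, 7.4 and 18.3 against 3.05, 2.87 and 3.01 (4.09-fold, adjusted p = 0.00258). The list summed to 308 to 809 CPM in the first group and 262 to 285 in the second, and none of its genes was at 0. Much of the sum in the second group was Csf1r and Mertk, so the sum understates the difference of the other markers. Csf1r had 57.4, 48.4 and 86.2 CPM against 79.9, 77.9 and 81.4, and Mertk had 39.5, 60.2 and 36.3 against 94.4, 94 and 95.6. In RNA of a whole kidney, fewer cells of a type and less RNA per cell cannot be told apart, and the part of macrophage number in the chemokine differences was not tested.

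Ccl20 and Cxcl17, ligands of epithelium, had 2 and 4 counts in all under the label KspCre Tfam f/f. Ccl20, the ligand of Ccr6, had 0.918, 0.501 and 1.55 CPM under the label Tfam f/f, and its 2 counts under the other label were both in replicate 1. Its 81 against 2 counts give a ratio per depth of 50.1 with a counting interval of 13.4 to 421, and the test called it (adjusted p = 0.00243), as did each alternative in which it passed the filter. Without KspCre Tfam f/f replicate 1 the other label had 0 counts, and Ccl20 was at least 20.5-fold higher under the label Tfam f/f, with 3 counts over the group as the limit. Cxcl17, a mucosal CXC-like ligand, had 1.54, 0.738 and 6.67 CPM against 0.0235, 0.0483 and 0.0382. From 229 and 4 counts the ratio was 70.8, with a counting interval of 27.3 to 262. The fit gave 73.2-fold (SE 1.13, adjusted p = 0.00487), and 28.2-fold without Tfam f/f replicate 3. Each alternative in which Cxcl17 passed the filter called it too. These intervals cover counting error only.

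The 2 membrane-held chemokines, Cx3cl1 (chromosome 8, 94772009 to 94782427) and Cxcl16 (chromosome 11, 70453983 to 70459984), were both higher under the label Tfam f/f. Cxcl16 is shed from epithelium and macrophages and binds Cxcr6. It had 79.9, 59 and 118 CPM under the label Tfam f/f and 36, 40.4 and 35.6 under the label KspCre Tfam f/f, without overlap, and was 2.29-fold higher (SE 0.23, adjusted p = 0.00589) with the call kept under every alternative run. Of its 100-base windows, 14.2% are shared with Zmynd15, which overlaps it on the opposite strand, so its count is uncertain. Cx3cl1 (fractalkine), the ligand of Cx3cr1, had 105, 105 and 115 CPM against 89.4, 81.7 and 83.4. Its small difference of 1.28-fold (SE 0.09, adjusted p = 0.0169) exceeded the spread within each label. It lost its call without any single KspCre Tfam f/f library (0.0538 to 0.0958).

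**Figure D3:**
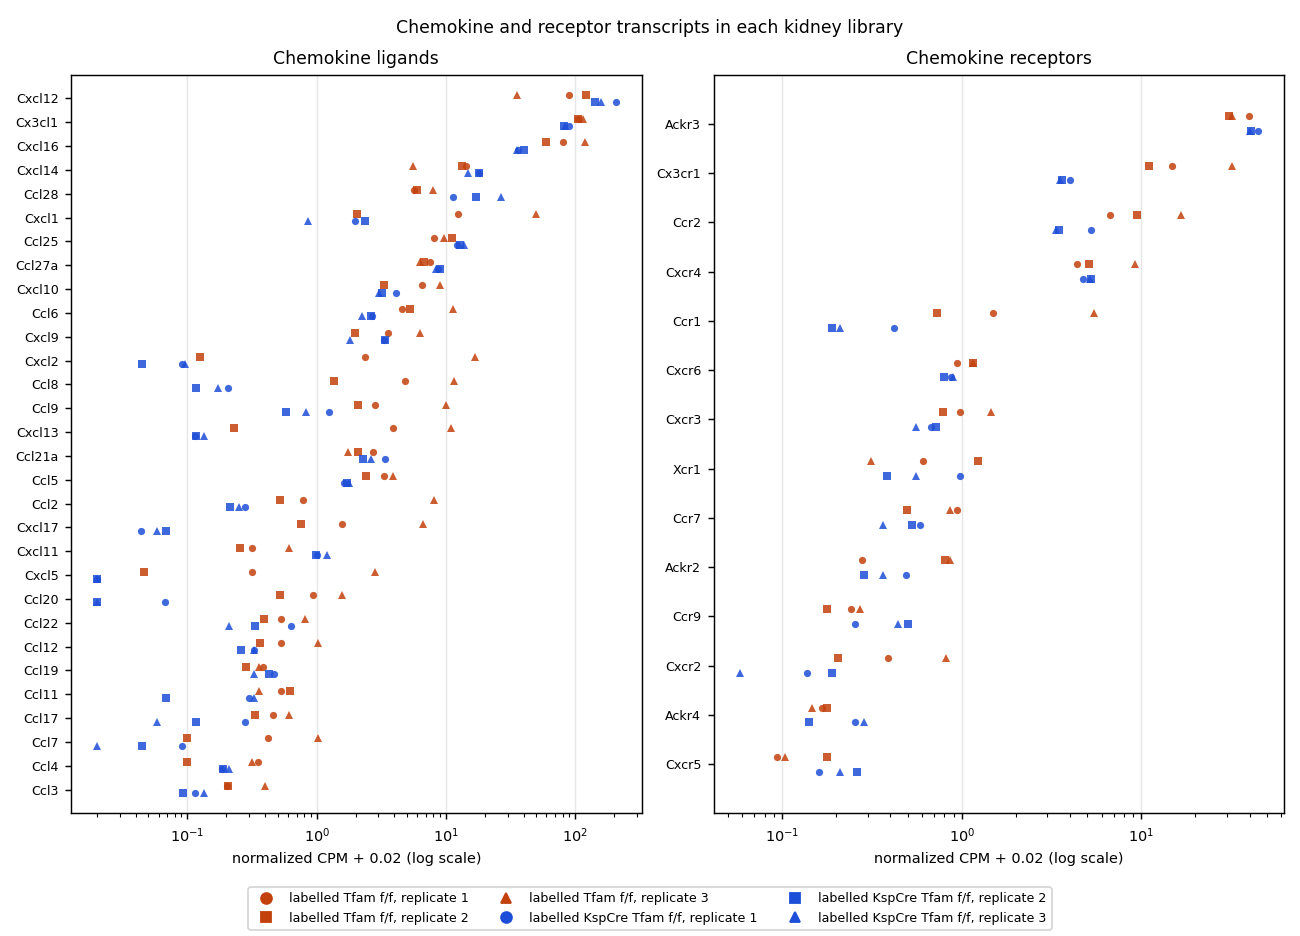
Normalized CPM plus 0.02 (x axis, log scale) of the 30 ligands (left) and 14 receptors (right) in each library, with orange for the label Tfam f/f, blue for the label KspCre Tfam f/f, and circles, squares and triangles for replicates 1, 2 and 3. Orange triangles stand far to the right for genes such as Cxcl1, Cxcl2, Ccl2 and Ccr1, and blue points lie to the right of all orange ones for genes such as Ccl28 and Cxcl11.

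Of the 3 interferon-inducible ligands of Cxcr3, 1 was called, and it was higher under the label KspCre Tfam f/f, as were 21.3% of all tested genes. Cxcl10 had 6.54, 3.32 and 9.02 CPM under the label Tfam f/f and 4.11, 3.21 and 3.01 under the label KspCre Tfam f/f, and the groups overlap. Its 1.81-fold difference was not called (adjusted p = 0.0778), but passed without Tfam f/f replicate 2 (0.00557), with DESeq2 (0.0445) and with library totals alone (0.0181). Cxcl9 had 3.56, 1.98 and 6.25 CPM against 3.29, 3.36 and 1.79 and was not called (adjusted p = 0.408), and its direction turned without Tfam f/f replicate 3. Cxcl11, the third of them, had 0.294, 0.237 and 0.588 CPM against 0.986, 0.966 and 1.18 and was 2.87-fold higher under the label KspCre Tfam f/f (SE 0.38, adjusted p = 0.0139), a call lost without KspCre Tfam f/f replicate 3 (0.053). The gene shares 39.1% of its 100-base windows with the pseudogene Gm2673 on the opposite strand, so its count is uncertain. Cxcr3, the receptor of all 3 on activated T and natural killer cells, had 0.955, 0.764 and 1.43 CPM against 0.658, 0.701 and 0.534 and was not called (adjusted p = 0.108).

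Of 7 homeostatic ligands tested, 2 (Ccl28 and Ccl25) were called, both higher under the label KspCre Tfam f/f, and 5 were not. Of all tested genes, 21.3% were called in that direction. The count leaves out Cxcl13, which was below the filter and is given apart, with higher values under the label Tfam f/f. Ccl28 (chromosome 13, 119623819 to 119654359), a mucosal epithelial chemokine for Ccr10 and Ccr3, had 5.65, 5.93 and 7.89 CPM under the label Tfam f/f and 11.4, 17.2 and 26.9 under the label KspCre Tfam f/f. It was 2.84-fold higher in the latter (SE 0.31, adjusted p = 0.00736) and was called in that direction under every alternative run. Ccl25, best known from thymus and small intestine, had 8.08, 11.1 and 9.61 CPM against 12.2, 12.8 and 13.8, a 1.35-fold difference close to the threshold (SE 0.15, adjusted p = 0.0465). Of 15 alternatives, 10 ended that call (adjusted p up to 0.984 with library totals alone).

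Cxcl12, which holds Cxcr4-bearing cells in place and is made by stromal and vascular cells, had 89.3, 122 and 35.4 CPM against 206, 142 and 159. Tfam f/f replicate 3 was the lowest library and the groups did not overlap, but the 2.05-fold difference was not called (SE 0.40, adjusted p = 0.0681). It was called without Tfam f/f replicate 2 (0.0225), without replicate 3 (0.0251) and with DESeq2 (0.0164). Cxcl14, an orphan CXC ligand of epithelium, had 14.3, 13.3 and 5.58 CPM against 18.1, 18 and 14.7 with the same library lowest (adjusted p = 0.147). Ccl27a, an epithelial ligand of Ccr10, had means of 6.83 ± 0.623 and 8.68 ± 0.328 CPM (SD, n = 3 each; adjusted p = 0.0701). Ccl21a and Ccl19, the lymphoid ligands of Ccr7, had 2.17 ± 0.505 and 0.322 ± 0.0532 CPM against 2.73 ± 0.545 and 0.387 ± 0.0733 (adjusted p = 0.316 and 0.484). With library totals alone the sign of the last 3 genes turned. Near-identical copies share 50.3% of the 100-base windows of Ccl21a, 39.3% of Ccl19 and 26.5% of Ccl27a, and these counts are uncertain.

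Cxcl13, the follicular ligand of Cxcr5, had 3.89, 0.211 and 11 CPM against 0.0939, 0.0966 and 0.114, with nearly all reads in replicates 1 and 3 of the label Tfam f/f. It was below the filter, and a fit without the filter gave 46.8-fold, not called (adjusted p = 0.0935), and called without Tfam f/f replicate 2 (3.12e-05). Its fold was 18.7 without Tfam f/f replicate 3 (adjusted p = 0.195). Ccl17 and Ccl22, the dendritic cell ligands of Ccr4, had 0.448 ± 0.136 and 0.56 ± 0.218 CPM against 0.131 ± 0.114 and 0.372 ± 0.216 (SD, n = 3). Ccl17 just missed the threshold (adjusted p = 0.0523) and was called with upper-quartile factors (0.0452), with voom (0.0364), with library totals alone (0.0185) and without KspCre Tfam f/f replicate 1 (0.0273). Ccl22 was not called (adjusted p = 0.427).

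Compared per kilobase of exon, which allows levels of different genes to be set side by side, Cx3cl1 and Cxcl16 were the highest ligands under the label Tfam f/f, and Cx3cl1 and Cxcl12 under the other. Cx3cl1 stood at 27.6 ± 1.45 CPM per kb under the label Tfam f/f and 21.6 ± 1.04 under the label KspCre Tfam f/f (SD, n = 3 each). Cxcl16 stood at 28.4 ± 9.94 and 12.4 ± 0.89, and Cxcl12 at 10.1 ± 5.37 and 20.7 ± 4.04. Cx3cl1 and Cxcl16 thus lay within each other's spread under the first label, and Cx3cl1 and Cxcl12 under the second. Behind Cx3cl1 and Cxcl16, Ccl8 (11.5 ± 10.1), Cxcl1 (11.4 ± 13.3) and Cxcl12 could not be ordered under the label Tfam f/f, while Ccl8 and Cxcl1 were at 0.285 ± 0.09 and 0.921 ± 0.423 under the other. The lowest of the 30 ligands was Cxcl11 under the label Tfam f/f (0.0983) and Cxcl5 under the label KspCre Tfam f/f (0).

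Of 11 receptors tested, 3 (27.3%) were called higher under the label Tfam f/f, a share near the 24.9% of all tested genes. These 3 were all receptors of monocytes and macrophages. Cx3cr1 (ENSMUSG00000052336.7, chromosome 9, 119901616 to 120069879), carried by resident macrophages and patrolling monocytes, had 14.8, 11.1 and 31.9 CPM under the label Tfam f/f and 3.99, 3.6 and 3.51 under the label KspCre Tfam f/f. The groups did not overlap, and it was 5.17-fold higher (SE 0.39, adjusted p = 0.0031) with the call kept under every alternative run. Ccr2, the receptor of inflammatory monocytes, had 6.68, 9.46 and 16.5 CPM against 5.24, 3.48 and 3.32 and was 2.69-fold higher (SE 0.35, adjusted p = 0.0133). Without KspCre Tfam f/f replicate 2 or 3 its adjusted p was 0.0563 or 0.054.

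Ccr1, a receptor of Ccl5, Ccl6 and Ccl9 on monocytes and neutrophils, was, like Ccl2 and Ccl9, highest in Tfam f/f replicate 3 and higher in replicate 1 than in replicate 2. It had 1.47, 0.711 and 5.46 CPM against 0.399, 0.169 and 0.191 and was 9.5-fold higher (SE 0.82, adjusted p = 0.0159), 4.08-fold without Tfam f/f replicate 3. It missed the threshold without KspCre Tfam f/f replicate 2 (0.0643), without replicate 3 (0.0581) and without the low-count filter (0.0556). Ccr1 (123962124 to 123968692) and Ccr2 (124101950 to 124113557) lie near each other on chromosome 9 (mm10).

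The other 8 receptors tested were not called. Cxcr4, the signalling receptor of Cxcl12 on many cell types, had 4.37, 5.11 and 9.19 CPM against 4.72, 5.22 and 5.15 (adjusted p = 0.4), and its direction turned without Tfam f/f replicate 3. Ackr3, which takes up Cxcl12 and Cxcl11 without G protein signalling, had 39.5, 30.7 and 32.1 CPM against 44.8, 40.5 and 40.1 (adjusted p = 0.0719). It was called higher under the label KspCre Tfam f/f without Tfam f/f replicate 1 (0.0193), and its direction turned with library totals alone. Cxcr6, the T cell receptor of Cxcl16, had 0.918, 1.13 and 1.13 CPM against 0.845, 0.773 and 0.878 (adjusted p = 0.263). The 5 other receptors tested and not called (Cxcr3, Ccr7, Ccr9, Xcr1 and Ackr2) had group means between 0.21 and 1.05 CPM and adjusted p from 0.108 to 0.774. Ackr4 and Cxcr5, below the filter, had means of 0.144 ± 0.0163 and 0.105 ± 0.0461 CPM against 0.208 ± 0.0769 and 0.191 ± 0.0503. Per kilobase, Ackr3 stood at 10.2 ± 1.41 and 12.5 ± 0.781 CPM per kb under the labels Tfam f/f and KspCre Tfam f/f, ahead of Cxcr4 (3.44 ± 1.44 and 2.78 ± 0.149), Cx3cr1 (4.27 ± 2.47 and 0.821 ± 0.0569) and Ccr2 (1.61 ± 0.752 and 0.593 ± 0.157). Cxcr4 and Cx3cr1 were within each other's spread under the first label and well apart under the second.

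Markers of T cells and of other leukocytes stood beside the lymphocyte receptors as follows. Of 9 T cell markers, 2 (22.2%, against 24.9% of all tested genes) were higher under the label Tfam f/f. They were Lck (4.84-fold, adjusted p = 0.00101) and Cd4 (4.46-fold, adjusted p = 0.0127). The other 7 were not called, among them the 3 Cd3 chains and Cd8a, which was 1.29-fold higher under the label KspCre Tfam f/f (adjusted p = 0.289). That list summed to 15.5 to 32.9 CPM in the first group and 7.9 to 9.42 in the second. Much of this was Lck (8.52, 5.72 and 11.5 CPM against 1.69, 1.91 and 1.68) and Cd4 (3.27, 3.56 and 10.4 against 1.34, 1.67 and 0.763). Of the B cell markers, 1 of 3 tested (33.3%, against the same 24.9%) was called (Cd79b, 1.96-fold higher under the label Tfam f/f, adjusted p = 0.0292). None of 3 natural killer, 6 dendritic, 3 lymphatic or 6 endothelial markers tested was called by edgeR, although 0, 2, 2 and 1 of them had an unadjusted p below 0.05. The smallest adjusted p of each list was 0.134 for Gzma, 0.0607 for Batf3, 0.0613 for Prox1 and 0.0909 for Emcn. Of 6 fibroblast markers, 2 (33.3%, against 24.9%) were higher under the label Tfam f/f. They were Col1a1 (2.72-fold, adjusted p = 0.00103) and Lum (2.28-fold, adjusted p = 0.0276). The part of these cells in the receptor values was not tested.

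Receptors were then paired with their known ligands. Of 55 pairs listed, 22 had both sides tested, from 10 receptors and 17 ligands. In 5 pairs both sides were higher under the label Tfam f/f: Ccr2 with Ccl2, Ccr1 with Ccl5, Ccl6 and Ccl9, and Cx3cr1 with Cx3cl1. Since 0 receptors were called higher under the label KspCre Tfam f/f, the count of pairs with both sides higher there could only be 0. Opposite calls could likewise only be 0. Ccl25, Ccl28 and Cxcl11, the ligands called higher there, are not listed with Ccr1, Ccr2 or Cx3cr1. A single pair had its receptor alone called (Ccr2 with Ccl12), 6 the ligand alone and 10 neither. Pairs share members, so these counts are not independent of each other.

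The sizes within a pair differed widely. Cx3cr1 differed by 5.17-fold and its ligand Cx3cl1 by 1.28-fold, whereas Ccr2 differed by 2.69-fold and Ccl2 by 13.2-fold. Cxcl16 was called and its receptor Cxcr6 was not. Only 3 receptors were called in all, and ligands on the KspCre Tfam f/f side lacked a called receptor. Ccl25 had Ccr9 at 0.21 ± 0.0477 and 0.379 ± 0.129 CPM (adjusted p = 0.135), and Cxcl11 had Cxcr3 and Ackr3. Ccr9 shares 18.9% of its 100-base windows with Gm17200 and AC165425.1, so its count is uncertain. For Ccl28, Ccl20 and Ccl8, the signalling receptors (Ccr10 and Ccr3, Ccr6, and Ccr8) were all below the threshold of 30 reads, with 9, 2, 27 and 6 reads in the 6 libraries together. The plot of pairs places each receptor on a line with its ligands.

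**Figure D4:**
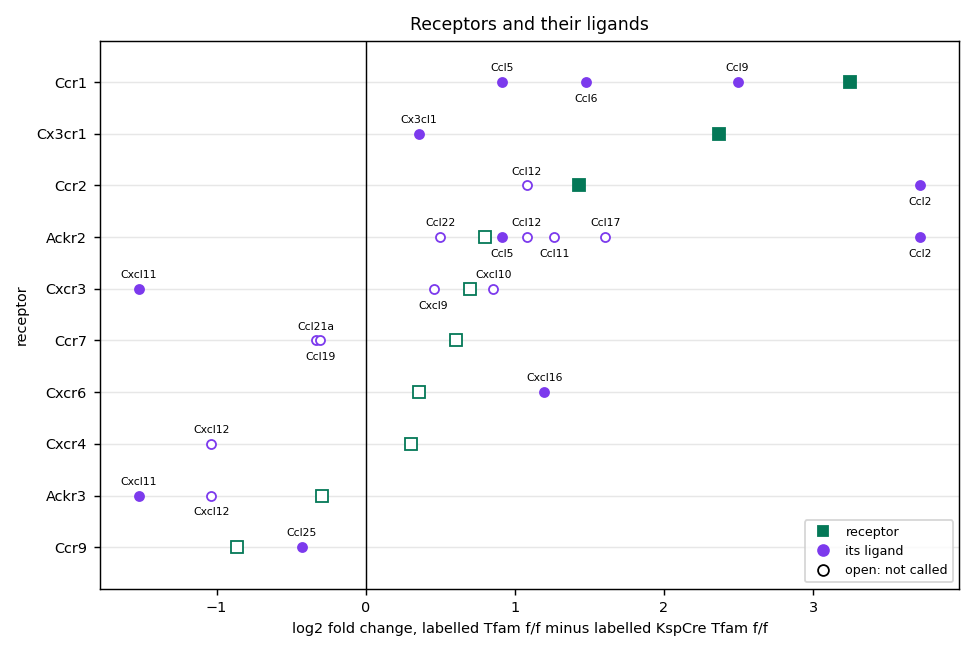
Log2 fold change (x axis, libraries labelled Tfam f/f minus libraries labelled KspCre Tfam f/f) of 10 receptors (green squares, 1 per line) and their tested ligands (purple circles, named), with filled symbols for called genes. On the lines of Ccr1, Cx3cr1 and Ccr2 receptor and ligands lie right of 0, and ligands of Ackr3, Ccr9, Ccr7 and Cxcr4 lie left of it.

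Genes that carry the signal of chemokine receptors into the cell gave calls in both directions. Of 35 tested, 19 were higher under the label Tfam f/f, 3 were higher under the label KspCre Tfam f/f and 13 were not called, against 24.9% and 21.3% of all tested genes. Tiam1, an activator of Rac, had 26.2, 25 and 33.3 CPM against 9.39, 7.75 and 10.2 (3.09-fold, adjusted p = 0.000401). Rgs19, which shortens inhibitory G protein signals, had 13.1, 9.06 and 15.4 against 3.41, 2.75 and 2.48 (4.31-fold, adjusted p = 0.000727). Ptk2b, a kinase downstream of chemokine receptors, went the other way, with 60, 65.4 and 58 against 99.6, 99.7 and 92.1 (1.59-fold higher under the label KspCre Tfam f/f, adjusted p = 0.00159). Many genes of this list also serve other receptors.

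Of 15 genes tested that present, shed or cut chemokines, 4 (26.7%) were higher under the label Tfam f/f, 3 (20%) higher under the other label and 8 not called, shares near the 24.9% and 21.3% of all tested genes. Sdc1, a heparan sulfate proteoglycan that can hold chemokines, had 41.8, 26.9 and 52.8 CPM against 15.7, 15.4 and 14.9 (2.63-fold, adjusted p = 0.0028), while its relative Sdc2 had 71.3, 92.9 and 66.9 against 141, 138 and 145 (1.84-fold higher under the label KspCre Tfam f/f, adjusted p = 0.0026). Dpp4, a peptidase that trims and inactivates Cxcl12 and others, had 50.4, 73.2 and 56.4 against 103, 105 and 95.5 (1.68-fold higher under the label KspCre Tfam f/f, adjusted p = 0.00545). Of 6 other chemokine-related ligands and receptors tested, 2 (33.3%, against 24.9%) were higher under the label Tfam f/f and 4 were not called. Cd74, the receptor of Mif, had 508, 225 and 746 against 148, 114 and 109 (3.98-fold, adjusted p = 0.00688). Pf4, a platelet CXC chemokine, was 2.19-fold higher (adjusted p = 0.0202).

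The 3 libraries of the label Tfam f/f did not carry these transcripts evenly. In 13 of the 13 genes called higher there, replicate 3 was the highest of the 3, and in 11 (84.6%) replicate 2 was the lowest. Among all 4310 genes called in that direction the shares were 64.8% and 73.1%. Markers of tubule epithelium, abundant in all 6 libraries, had the opposite order in sum. The list summed to 7950, 11913 and 5282 CPM in Tfam f/f replicates 1, 2 and 3 against 20228 to 20980. Of 8 markers, 5 (62.5%, against 21.3% of all tested genes) were higher under the label KspCre Tfam f/f and 3 were not called. Among the 3, Aqp2 was 1.22-fold higher under the label Tfam f/f (adjusted p = 0.629), with 162, 140 and 37.1 CPM against 90.1, 85 and 102. Of 5 markers of tubule injury, 5 (100%, against 24.9% of all tested genes) were higher under the label Tfam f/f. They summed to 1146, 356 and 2038 CPM in replicates 1, 2 and 3 against 14.6 to 16.4. Lcn2, secreted by injured tubule cells, led them (391-fold, adjusted p = 0.000256). All 5 immediate early genes listed (100%, against the same 24.9%) were higher under that label too, with the smallest p for Atf3 (18.7-fold, adjusted p = 8.12e-05). The part of tubule injury or of the immediate early genes in the chemokine values was not tested, and with 3 libraries no correlation was computed.

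**Figure D5:**
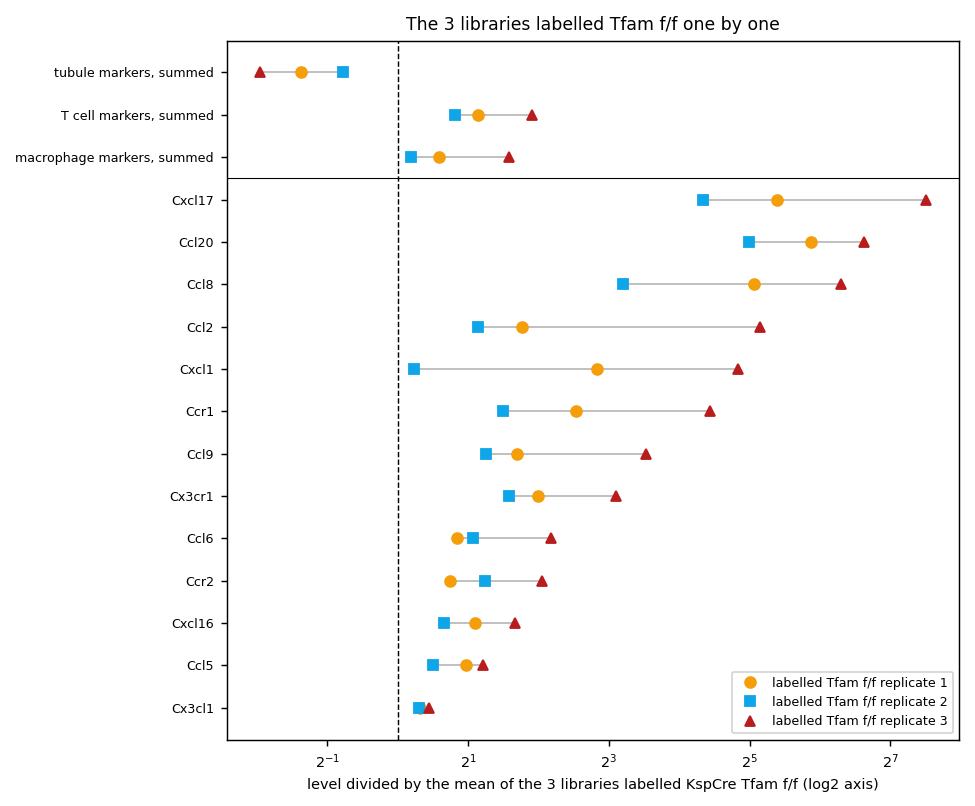
Level in each library labelled Tfam f/f divided by the mean of the 3 libraries labelled KspCre Tfam f/f (x axis, log2 scale) for the 13 genes called higher under the label Tfam f/f and, above the line, the summed markers of tubule, T cells and macrophages. Triangles (replicate 3) are the highest point for all 13 genes and for the T cell and macrophage markers, and the lowest for the tubule markers. The macrophage sum includes Csf1r and Mertk, which were not called higher under the label Tfam f/f.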

How the data were processed

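Poly A+ RNA of whole kidneys was sequenced in 6 libraries, 3 per label. The values the authors deposited are raw read counts per gene. HTSeq 0.11.0 and STAR 2.4.1d, with Trim Galore and FastQC, are named for build mm10 in the submitters' processing notes. Which annotation was counted, and whether strand was used, is not given in the sources used here, which leaves overlapping genes uncertain. Summary lines without a gene (16.0% to 20.4% of each file) were left out.

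Testing used edgeR 4.0.16 (R 4.3.3): filterByExpr (minimum count 10, minimum total 15), TMM factors, the robust quasi-likelihood test, group as the only term, and Benjamini-Hochberg adjustment over 17308 genes. The procedure was tested on simulated data with the same spread for all genes and both groups. Libraries of the label Tfam f/f differed more from each other than those of the other label. That test therefore cannot tell how far the calls here hold. Exon lengths, positions and 100-base windows shared with other genes came from GENCODE M21 and its genome. Alternatives were RLE and upper-quartile factors, 2 other filters, DESeq2 1.42.0, limma 3.58.1 voom, thinning to the shallowest library, a replicate block and each library left out; library totals alone were added after seeing the data, as was a fit without the filter as the reference for genes that the filter removes, and count ratios of scarce genes with each library left out.

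The genes, gene lists and pairs were chosen with earlier results of these data known. Results of 1 gene of the family are not reported here; it entered the fit but not the counts of the family. Any other gene of the family could be named, with full statistics for called genes and for those with a mean of at least 1 CPM in either group, and from each list the called genes with the smallest p (up to 3) or, where none was called, the gene with the smallest p; other names were chosen after their values were seen. Whether libraries of a label are separate animals is not stated, so p-values reflect only how much these libraries vary, perhaps for technical reasons. Pairs of libraries of 1 label differed by more than sampling noise (chi-square per degree of freedom 6.98 to 162), so none was treated as a duplicate.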

Additional observations from a re-analysis of the deposited data

How the results depend on the processing

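Values are log2 differences, KspCre Tfam f/f minus Tfam f/f, unless named otherwise. Over the 16 called genes of the family and the alternatives run, 195 refits kept the call and 38 lost it with the same direction. With library totals alone, 8519 genes were called higher under the label Tfam f/f and 1680 under the other, in place of 4310 and 3690, and the sign turned for Ackr3 (-0.133), Ccl19 (-0.116), Ccl21a (-0.0861) and Ccl27a (-0.0789), none of them called. It also called 7 more genes of the family higher under the label Tfam f/f (Ccl11, Ccl12, Ccl17, Cxcl10, Ccr7, Cxcr3 and Cxcr6). Leaving out 1 library at a time gave 2822 to 4942 and 2276 to 4652 genes, and 6 to 20 and 1 to 4 genes of the family. Such refits turned 4 signs, none of them called: Cxcl9 (-0.753 to 0.0556, without Tfam f/f replicate 3), Cxcr4 (-0.48 to 0.0769, the same library), Xcr1 (-0.699 to 0.507, without replicate 2 of either label) and, with no filter, Ccl4 (-0.769 to 0.0229, without Tfam f/f replicate 1).

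Same-numbered libraries did not deviate together (r -0.174, -0.0702 and -0.0708), so the replicate numbers were not taken as pairs. With the replicate block, 3586 and 3227 genes, and 11 and 3 of the family, were called; Cxcl1 (adjusted p 0.137), Cx3cl1 (0.0622) and Ccl25 (0.0721) were not, and Cxcl14 was (0.042). Among genes fitted without the filter, the block called Cxcl2 (4.61e-08), Cxcl5 (1.05e-06) and Cxcl13 (0.0153) and did not call Cxcr2 (0.0682). Apart from single libraries left out, folds of called genes moved by over 1.5 times for Ccl2 (6.90 with the block, 5.51 with voom), Cxcl1 (6.33 and 5.38), Ccl8 (24.6 with voom) and Cxcl17 (43.4 thinned, 36.3 with voom). Without KspCre Tfam f/f replicate 1, which held both reads of Ccl20 under that label, its fitted fold went from 44.6 to 243, a value that depends on the prior count. The cause of these shifts was not tested. Genes under about 1 CPM rest on few reads, and differences among them may not be detectable at this depth.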

Other observations

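Chemokine and receptor genes below the total of 30 reads entered no comparison. Ccr6, the receptor of Ccl20, had 4, 3 and 10 counts in replicates 1 to 3 under the label Tfam f/f and 2, 4 and 4 under the label KspCre Tfam f/f. Xcl1, the ligand of Xcr1, had 2, 8 and 3 against 1, 9 and 3, and Ccr4, the receptor of Ccl17 and Ccl22, had 0, 6 and 3 against 3, 0 and 2. Cxcr1, Cxcl15, Ccl26, Ccl27b and both copies of Ccl21b had 0 reads in all 6 libraries.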
